A study of Mus musculus with 15 samples.

Results

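Transcripts of T cells and of antibody-secreting plasma cells were examined in RNA from mouse optic nerves after crush injury, with and without a viral source of ciliary neurotrophic factor (CNTF, a cytokine of the interleukin-6 family). The 5 genes are Cd3e, Cd4, Gimap4, Igkc and Jchain, taken by gene name from the 14237 genes listed in the authors' expression table. The mice were adult C57BL/6J animals, and their eyes were treated beforehand with adeno-associated virus serotype 2 (AAV2, a gene delivery vector) by injection into the vitreous. In the crush AAV-CNTF group the virus carried a secretable CNTF and the nerve was crushed 2 weeks later. In the crush AAV-null group the virus was AAV2-Null, and in the sham group AAV2-Null was followed by exposure of the nerve without crush. Crushed nerves were collected 7 days after crush, and the sample labels give no times for sham nerves. Each group had 5 biological replicates, numbered 2 to 6, and every animal carried a virus. The vector was delivered to the eye and not to the nerve, and the labels do not say how many nerves went into a library.

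T cells recognise antigen through a receptor whose signal is passed on by the CD3 chains. CD4 marks the helper lineage, and GIMAP proteins are small GTPases on which the survival of resting lymphocytes depends. Plasma cells are B cells that have switched to secretion: their main RNAs encode immunoglobulin heavy and light chains, and the joining chain links the units of secreted IgM and IgA. The uninjured central nervous system holds few lymphocytes within its tissue, while its coverings, the meninges, are a known site of T cells and plasma cells.

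In mm10 with the GENCODE M21 annotation, Cd3e lies on chromosome 9 from 44998740 to 45009627 on the minus strand, with 4 annotated transcripts. Cd4 lies on chromosome 6 from 124864692 to 124888221 on the minus strand, with 5 transcripts. Gimap4 lies on chromosome 6 from 48684549 to 48692060 on the plus strand, with 6 transcripts. Igkc, the constant region of the kappa light chain, lies on chromosome 6 from 70726435 to 70726966 on the plus strand, as a single transcript of 532 bases. Jchain lies on chromosome 5 from 88519809 to 88527891 on the minus strand, with 2 transcripts. The annotation places the non-coding gene Gm30211 over Igkc on the same strand, and over Cd3e the antisense gene Gm48719 and, on the same strand, Gm48720, and no source used here says whether counting took strand into account.

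Promoter sequences were at hand for 3 of the 5 genes, Cd3e, Gimap4 and Jchain, and are shown as the 250 bases before the RefSeq gene start (GRCm38.p6) because they belong to genes that moved in opposite directions against sham. CNTF signals through STAT3, so they were searched on both strands for the STAT motif TTCNNNGAA and for the ETS motif GGAAGT or its reverse complement ACTTCC. RefSeq and GENCODE place the starts differently, so the window of Gimap4 runs 29 bases and that of Cd3e 16 bases into the GENCODE gene. The sequences follow the strand of each gene, and the capitals mark the only match.
Cd3e at chr9:45009612-45009861 (minus strand): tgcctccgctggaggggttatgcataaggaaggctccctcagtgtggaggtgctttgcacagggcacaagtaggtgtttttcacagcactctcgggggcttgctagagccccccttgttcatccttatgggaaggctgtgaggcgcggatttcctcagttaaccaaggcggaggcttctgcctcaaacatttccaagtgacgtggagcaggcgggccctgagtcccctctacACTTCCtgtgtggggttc
Gimap4 at chr6:48684328-48684577 (plus strand): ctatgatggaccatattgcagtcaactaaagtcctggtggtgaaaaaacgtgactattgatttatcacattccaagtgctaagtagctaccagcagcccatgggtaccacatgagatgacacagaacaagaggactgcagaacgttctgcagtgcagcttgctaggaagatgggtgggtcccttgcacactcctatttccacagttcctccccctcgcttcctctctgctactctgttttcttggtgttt
Jchain at chr5:88527898-88528147 (minus strand): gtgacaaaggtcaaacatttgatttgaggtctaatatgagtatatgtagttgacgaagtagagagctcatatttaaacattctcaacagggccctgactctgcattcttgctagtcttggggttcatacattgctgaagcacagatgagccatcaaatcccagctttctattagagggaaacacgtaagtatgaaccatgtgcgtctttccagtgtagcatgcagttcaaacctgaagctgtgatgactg
The STAT motif was in 0 of these 3 windows and in 7.02% of 32851 mouse promoter windows of the same length. The ETS motif was in the window of Cd3e and in 19.7% of all windows. A match is only a run of letters, and these counts say nothing of binding.

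Summed expected counts per library were 23775487 to 29558293 with crush AAV-CNTF, 19918858 to 29138927 with crush AAV-null and 19856688 to 26411929 with sham. Levels below are in CPM, counts relative to library size, scaled between libraries by edgeR's TMM method. Of the defining cells of the labelled tissue, oligodendrocytes were present by their markers: 8 of their genes together made up 17426 to 25092 CPM in crush AAV-CNTF, 21255 to 29765 CPM in crush AAV-null and 50611 to 64229 CPM in sham nerves. Each listed gene reached 1 FPKM (fragments relative to gene length and library size) in at least 4 libraries of some group, and all 5 genes did so in every group. Crush AAV-null replicate 6 had the largest share of listed genes at 0 (3.18%), and results without it and crush AAV-CNTF replicate 4 are given where they differ. The comparisons against sham share the sham libraries, and those that involve crush AAV-null share its libraries. In bulk tissue, more or fewer cells of a type and more or less of a transcript per cell cannot be told apart.

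Cd3e, which encodes the epsilon chain of CD3 and is restricted to T cells and their near relatives, was highest in crush AAV-CNTF nerves. It stood at 19.6, 7.18, 18.1, 5.32 and 9.06 CPM in crush AAV-CNTF replicates 2 to 6, at 3.72, 0.489, 6.5, 2.03 and 1.66 CPM in crush AAV-null replicates 2 to 6, and at 1.08, 7.24, 1.40, 4.02 and 4.98 CPM in sham replicates 2 to 6. Replicates 2 and 4 of the AAV-CNTF group were far above every other library, replicate 5 was within the range of both AAV-null groups, and replicate 3 was within that of sham. The means were 11.9 ± 6.55 CPM in crush AAV-CNTF, 2.88 ± 2.33 CPM in crush AAV-null and 3.74 ± 2.57 CPM in sham (SD, n = 5 each). Against sham, Cd3e rose in crush AAV-CNTF by 1.66 ± 0.60 (log2 fold change ± SE; edgeR's quasi-likelihood test, Benjamini-Hochberg adjusted p = 0.0397), and 17% of all 14194 genes tested were called higher in that comparison. The call was lost when any 1 of 6 libraries was left out: crush AAV-CNTF replicate 2 (1.40) or 4 (1.46), or sham replicate 2 (1.42), 4 (1.45), 5 (1.69) or 6 (1.79). Without both of the high AAV-CNTF libraries it was 0.94 (adjusted p = 0.372).

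Against crush AAV-null, Cd3e was 2.04 ± 0.61 higher in crush AAV-CNTF on the log2 scale, with 4 of 5 AAV-CNTF libraries above the highest AAV-null library and replicate 5 below it. That difference did not pass edgeR's quasi-likelihood test (Benjamini-Hochberg adjusted p = 0.279). Only 6 genes, 0.0423% of those tested, were called higher in that comparison, none of them among the 5. At an unadjusted p under 0.05 Cd3e, Cd4 and Gimap4 were higher, as were 3.94% of all genes. The authors' deposited table gives the same contrast a log2 fold change of 2.04 with an adjusted p of 0.0481. It calls 0.415% of genes higher, as many as DESeq2 does here, but Cd3e was not called by DESeq2 here. Between crush AAV-null and sham nerves the difference in Cd3e was -0.38 ± 0.59 (adjusted p = 0.694), with a 95% interval from -1.67 to 0.91.

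Cd4, the coreceptor of helper T cells that some macrophages and dendritic cells also express, had a like order but passed no test on all 15 libraries. Its levels were 15.2, 8.48, 19.8, 7.79 and 3.31 CPM in crush AAV-CNTF replicates 2 to 6, 4.01, 3.51, 4.91, 4.69 and 2.57 CPM in crush AAV-null, and 3.28, 9.46, 1.54, 4.29 and 7.77 CPM in sham. In crush nerves 4 of 5 AAV-CNTF libraries were above the highest AAV-null library, and replicate 6 was within its range. The means were 10.9 ± 6.55 CPM in crush AAV-CNTF, 3.94 ± 0.946 CPM in crush AAV-null and 5.27 ± 3.27 CPM in sham (SD, n = 5 each). The difference of crush AAV-CNTF from crush AAV-null was 1.47 ± 0.48 on the log2 scale (edgeR's quasi-likelihood test, Benjamini-Hochberg adjusted p = 0.357). From sham it was 1.05 ± 0.47 (adjusted p = 0.0984), and it passed without crush AAV-CNTF replicate 6 (1.28, adjusted p = 0.0368) or sham replicate 3 (1.37, adjusted p = 0.0441). Crush AAV-null differed from sham by -0.42 ± 0.47 (adjusted p = 0.567; 95% interval -1.45 to 0.61).

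Gimap4, a member of the GIMAP family that is abundant in T cells, separated the crush groups fully. It stood at 12.6, 6.39, 31.3, 12.7 and 5.47 CPM in crush AAV-CNTF replicates 2 to 6, at 4.16, 2.00, 3.38, 2.21 and 4.57 CPM in crush AAV-null, and at 3.53, 5.44, 2.79, 5.42 and 6.27 CPM in sham. Every AAV-CNTF library was above every crush AAV-null library, an order that 0.838% of tested genes showed, and 4 of 5 were above the highest sham library. The means were 13.7 ± 10.4 CPM in crush AAV-CNTF, 3.26 ± 1.14 CPM in crush AAV-null and 4.69 ± 1.46 CPM in sham (SD, n = 5 each). Against sham, Gimap4 rose in crush AAV-CNTF by 1.54 ± 0.43 on the log2 scale (edgeR's quasi-likelihood test, Benjamini-Hochberg adjusted p = 0.00897). Without AAV-CNTF replicate 4, its highest library, that change was 0.98 (adjusted p = 0.0833).

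Against crush AAV-null, Gimap4 was 2.07 ± 0.44 higher on the log2 scale in crush AAV-CNTF and missed the threshold (edgeR's quasi-likelihood test, Benjamini-Hochberg adjusted p = 0.0732). It was the 26th gene by p in that comparison, and it passed with DESeq2 (2.06, adjusted p = 0.00269), with the skeletal muscle level as a covariate (2.11, adjusted p = 0.0435) and without AAV-CNTF replicate 6 (2.27, adjusted p = 0.0214). The authors' deposited table gives 2.07 with an adjusted p of 0.00595. Without AAV-CNTF replicate 4 the difference was 1.51 (adjusted p = 0.384). Crush AAV-null differed from sham by -0.52 ± 0.43 (adjusted p = 0.413; 95% interval -1.46 to 0.41).

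**Figure D1:**
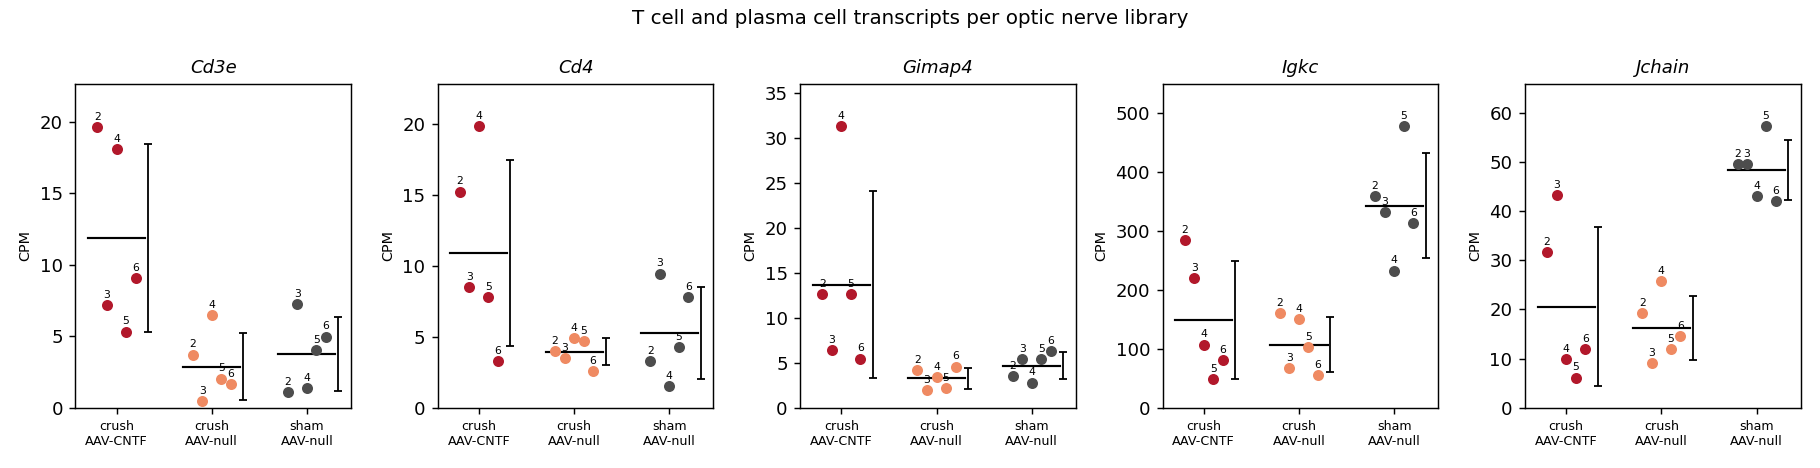
Level of each gene in CPM (vertical axis, linear, from 0) in the 5 libraries of each group, with the replicate number above each point, the mean as a line and the SD as a bar. Cd3e, Cd4 and Gimap4 are highest in crush AAV-CNTF, where replicate 4 reaches 18.1, 19.8 and 31.3 CPM, and Igkc and Jchain are highest in sham, at means of 344 and 48.3 CPM.

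Of 26 other T cell genes looked for, 10 were listed, among them Trac and Trbc2, which encode the constant regions of the T cell receptor, and Cd3g. The cytotoxic coreceptor genes Cd8a and Cd8b1 were not among the listed genes. Summed, the 10 made up 37.2 to 78.7 CPM in crush AAV-CNTF, 23.0 to 28.1 CPM in crush AAV-null and 20.0 to 31.5 CPM in sham nerves. In this sum, which the listing favours as given below, the AAV-CNTF libraries did not overlap with the rest. Its largest part was Tcf7, at means of 18.0 CPM in crush AAV-CNTF, 11.9 CPM in crush AAV-null and 7.85 CPM in sham. Between crush AAV-CNTF and crush AAV-null 0 of 10 were called by edgeR's quasi-likelihood test, all 10 fold changes were positive and their median was 1.5 on the log2 scale, against -0.0035 over all genes. All 10 had reached the listing level in crush AAV-CNTF but only 5 in crush AAV-null, so the listing itself favours genes that are high with AAV-CNTF. Neither the direction of the 10 nor the separation of their sum supports anything by itself. Trac, Cd2 and Tcf7 reached it in all 3 groups. Their differences of crush AAV-CNTF from crush AAV-null were 1.5 for Trac, 1.70 for Cd2 and 0.59 for Tcf7, with none called.

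Against sham, 1 of the 10 rose in crush AAV-CNTF, a share no larger than the 17% of all genes that rose. It was Tcf7, a transcription factor of naive and memory T cells, at 18.0 ± 4.62 CPM in crush AAV-CNTF and 7.85 ± 3.02 CPM in sham (SD, n = 5 each; log2 fold change 1.2, edgeR's quasi-likelihood test, Benjamini-Hochberg adjusted p = 0.00322). Its crush AAV-null level was 11.9 ± 2.76 CPM (SD, n = 5), between the other 2 groups, and the call held in each of the 15 fits without 1 library.

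Lck, the kinase that starts T cell receptor signalling, was the T cell gene with the sharpest contrast. It had 176, 101, 145, 103 and 51 counts in crush AAV-CNTF replicates 2 to 6, 0, 0, 0, 8 and 0 counts in crush AAV-null, and 59, 24, 11, 30 and 31 counts in sham. No library of crush AAV-null reached the lowest of either other group. Of tested genes, 0.838% lay wholly higher in crush AAV-CNTF than in crush AAV-null, and 10.1% lay wholly lower in crush AAV-null than in sham. Lck fell in crush AAV-null against sham (fitted log2 fold change -4.29, edgeR's quasi-likelihood test, Benjamini-Hochberg adjusted p = 0.00407), the 1 call among the 10 T cell genes in that comparison, where 12.9% of all genes fell and the list's median was -0.27. Between crush AAV-CNTF and crush AAV-null its adjusted p was 0.0528 (fitted log2 fold change 5.81). It passed there with no low-count filter (adjusted p = 0.0497), the muscle covariate (0.0424), limma on FPKM (0.0388) and DESeq2 (4.76e-07), and without AAV-CNTF replicate 6 (0.0257) or crush AAV-null replicate 5 (0.0145), and over all alternatives its adjusted p reached 0.358. In each of those 6 fits 1 of the T cell genes, Lck, was thus called higher. With a group at or near 0 these fitted values depend on the prior count and are no bounds, and Lck reached the listing level in crush AAV-CNTF only. The zeros are those of the authors' table of expected counts.

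Of 6 other listed GIMAP genes, 0 were called in any comparison by edgeR's quasi-likelihood test. Against crush AAV-null 5 of 6 were positive in crush AAV-CNTF, with a median log2 fold change of 0.88, and against sham 6 of 6 were positive, with a median of 1.1 (all on the log2 scale). Of the 6, only 2 reached the listing level in all 3 groups, and 3 did so in crush AAV-CNTF alone. Their summed level was 11.3 to 44.6 CPM in crush AAV-CNTF, 8.84 to 24.2 CPM in crush AAV-null and 8.84 to 21.1 CPM in sham, with overlap between all groups.

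**Figure D2:**
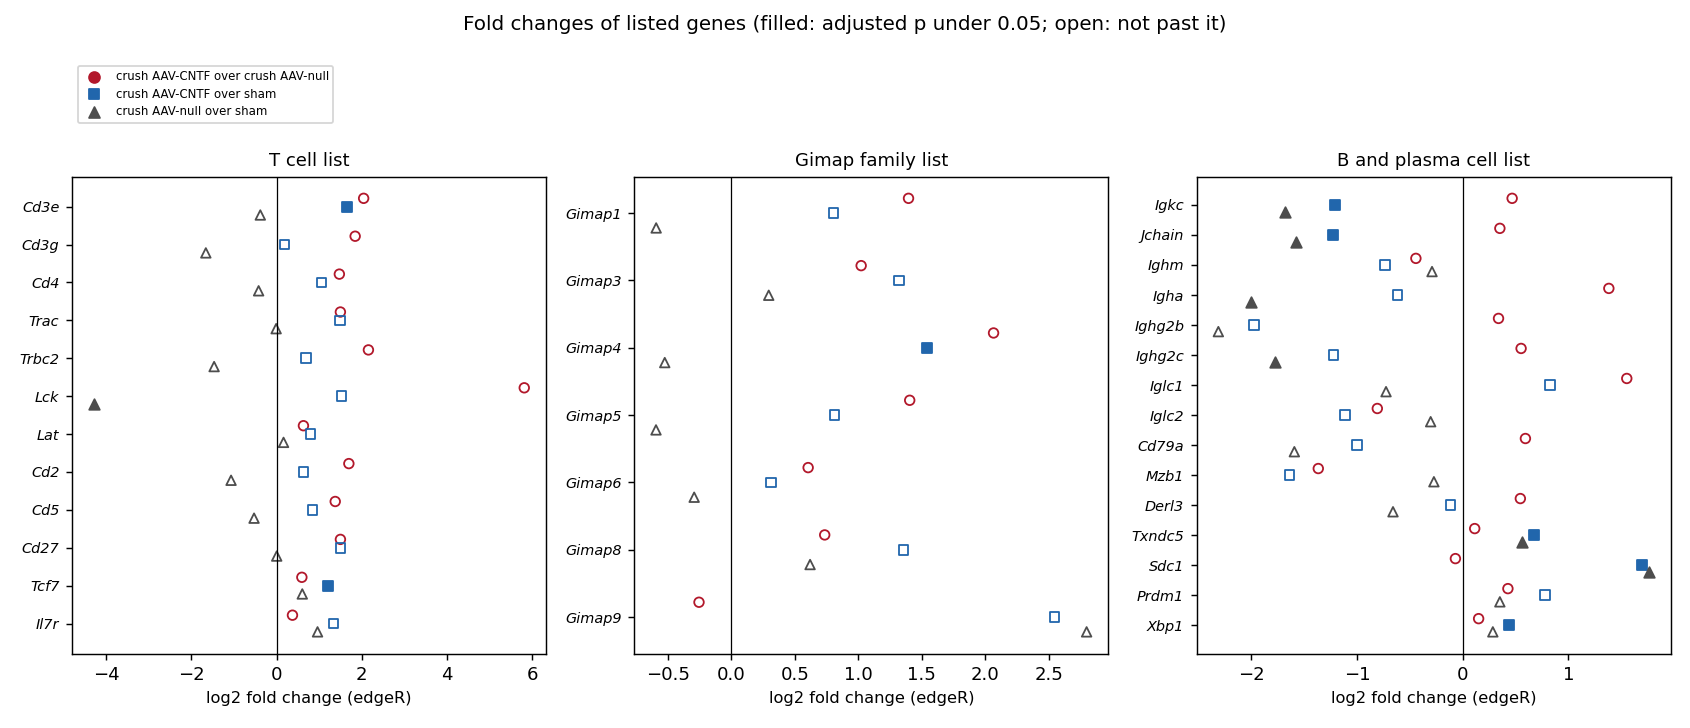
Log2 fold change (horizontal axis, edgeR) of every listed gene of the T cell, GIMAP and B and plasma cell lists in the 3 comparisons, filled where the adjusted p was under 0.05. In the T cell panel all points of crush AAV-CNTF over crush AAV-null lie right of 0 and are open, and in the B and plasma cell panel Igkc and Jchain lie left of 0 against sham and are filled.

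Levels of other cell types stood beside the T cell genes as follows. Phagocyte genes, 12 of 12 listed, summed to 4839 to 8279 CPM in crush AAV-CNTF, 7059 to 12207 CPM in crush AAV-null and 1132 to 1639 CPM in sham, and 0 of 12 were called between the crush groups. Dendritic cell genes, 7 of 11 listed, summed to 53.3 to 125 CPM in crush AAV-CNTF, 39.6 to 70.0 CPM in crush AAV-null and 37.0 to 48.8 CPM in sham. Endothelial genes, 13 of 13 listed, summed to 452 to 820 CPM in crush AAV-CNTF, 519 to 580 CPM in crush AAV-null and 543 to 625 CPM in sham. Of 11 natural killer cell genes 2 were listed, at a sum of 2.12 to 29.1 CPM in crush AAV-CNTF, 0.940 to 6.60 CPM in crush AAV-null and 0 to 9.84 CPM in sham. The 2 natural killer cell genes reached the listing level in crush AAV-CNTF only. Of the 7 dendritic cell genes, 7 reached it in crush AAV-CNTF, 3 in crush AAV-null and 4 in sham. In these 2 lists the listing itself thus favours genes that are high with AAV-CNTF. The part of any of these cell types in the levels of Cd3e, Cd4 and Gimap4 was not tested.

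Among 11 listed genes of T cell attraction and adhesion, 1 rose in crush AAV-CNTF against crush AAV-null, where 0.0423% of all genes rose. It was Cxcl9, an interferon-induced chemokine that attracts activated T cells, at 55.1, 14.7, 648, 70.0 and 1.56 CPM in crush AAV-CNTF replicates 2 to 6. Its crush AAV-null levels were 1.42, 1.64, 0, 1.72 and 0 CPM and its sham levels 0, 2.49, 0.652, 0 and 0.0810 CPM. AAV-CNTF replicate 4 was far above the other 4, and replicate 6 was within the range of both AAV-null groups. The fitted log2 fold change of crush AAV-CNTF over crush AAV-null was 7.42 (edgeR's quasi-likelihood test, Benjamini-Hochberg adjusted p = 0.0368), and the call was lost in 8 of 15 fits without 1 library, including that without AAV-CNTF replicate 4 (5.23, adjusted p = 0.168). Cxcl9 reached the listing level in crush AAV-CNTF only, and with the other groups near 0 this fitted value depends on the prior count and is no bound. Against sham 6 of the 11 rose in crush AAV-CNTF, where 17% of all genes rose, and 3 rose in crush AAV-null, where 14.7% of all genes rose. All 11 had reached the listing level in crush AAV-CNTF, 8 in crush AAV-null and 9 in sham. The listing itself thus favours genes that are high with AAV-CNTF, and the count of 6 supports nothing by itself. Icam1, an adhesion molecule bound by leukocyte integrins, stood at 52.8 ± 13.9 CPM in crush AAV-CNTF, 37.6 ± 6.93 CPM in crush AAV-null and 14.1 ± 2.31 CPM in sham (SD, n = 5 each). It rose by 1.90 in crush AAV-CNTF over sham (adjusted p = 1.27e-07) and by 1.41 in crush AAV-null over sham (adjusted p = 5.1e-06), both on the log2 scale. Cxcl16, a membrane-bound chemokine, rose by 1.71 (adjusted p = 2.47e-07) in crush AAV-CNTF and by 1.23 (adjusted p = 1.43e-05) in crush AAV-null, both against sham.

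Igkc, the constant region that most mouse light chains carry, was lower after crush. It stood at 285, 220, 107, 48.9 and 81.1 CPM in crush AAV-CNTF replicates 2 to 6, at 161, 67.6, 150, 103 and 55.3 CPM in crush AAV-null, and at 360, 332, 233, 479 and 313 CPM in sham. Every crush AAV-null library was below every sham library, an order seen for 10.1% of tested genes, and of the AAV-CNTF libraries only replicate 2 reached into the sham range. The means were 149 ± 100 CPM in crush AAV-CNTF, 107 ± 47.5 CPM in crush AAV-null and 344 ± 89.3 CPM in sham (SD, n = 5 each). In crush AAV-null Igkc fell to 31.3% of its sham mean (log2 fold change -1.68 ± 0.37, edgeR's quasi-likelihood test, Benjamini-Hochberg adjusted p = 0.00173), where 12.9% of all genes were called lower. In crush AAV-CNTF it fell by 1.21 ± 0.37 on the log2 scale against sham (adjusted p = 0.0157), where 14.3% of all genes were called lower. Between the crush groups the difference was 0.47 ± 0.37 (adjusted p = 0.868), with a 95% interval from -0.33 to 1.26, and without AAV-CNTF replicates 2 and 3 it was -0.44.

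Jchain, which encodes the joining chain of secreted IgM and IgA, followed the same order. It stood at 31.6, 43.3, 9.91, 6.15 and 12 CPM in crush AAV-CNTF replicates 2 to 6, at 19.2, 9.16, 25.7, 12 and 14.6 CPM in crush AAV-null, and at 49.6, 49.5, 43.0, 57.3 and 42.0 CPM in sham. Sham nerves varied little, and crush AAV-null nerves lay wholly below them, an order seen for 10.1% of tested genes. Among crushed nerves AAV-CNTF replicate 3 alone overlapped with sham. The means were 20.6 ± 16.1 CPM in crush AAV-CNTF, 16.1 ± 6.49 CPM in crush AAV-null and 48.3 ± 6.14 CPM in sham (SD, n = 5 each). In crush AAV-null Jchain fell to 33.4% of its sham mean (log2 fold change -1.58 ± 0.39, edgeR's quasi-likelihood test, Benjamini-Hochberg adjusted p = 0.0043). Of all genes, 12.9% were called lower there. In crush AAV-CNTF Jchain fell by 1.23 ± 0.39 on the log2 scale against sham (adjusted p = 0.0197), where 14.3% of all genes were called lower. The call was lost without AAV-CNTF replicate 4 (-1.05, adjusted p = 0.0517) or 6 (-1.09, adjusted p = 0.0521). The authors' deposited table gives that contrast a log2 fold change of -1.22 with an adjusted p of 0.0691. Between the crush groups the difference was 0.35 ± 0.39 (adjusted p = 0.931; 95% interval -0.49 to 1.2), and it was -0.12 without AAV-CNTF replicate 3.

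The fall of both genes in crush AAV-null against sham held in each of 15 fits without 1 library, at -1.87 to -1.51 for Igkc and -1.81 to -1.43 for Jchain. Skeletal muscle genes, of which 7 of 10 were listed, summed to 13 to 145 CPM in crush AAV-CNTF, 23.9 to 215 CPM in crush AAV-null and 83.9 to 745 CPM in sham. Of the 7, 0 were called in crush AAV-null over sham. In crush AAV-CNTF over sham 3 fell, as did 14.3% of all genes. All 7 had reached the listing level in sham, but only 4 in crush AAV-null and 1 in crush AAV-CNTF. The listing itself thus favours muscle genes that are high in sham. Within groups the mean level of the 7 had an r of 0.0791 with Igkc and -0.00489 with Jchain over the 15 libraries. With the level of that list as a covariate the change in crush AAV-null against sham was -1.57 for Igkc (edgeR's quasi-likelihood test, Benjamini-Hochberg adjusted p = 0.0122) and -1.49 for Jchain (adjusted p = 0.0203). In crush AAV-CNTF against sham both calls were lost with it, at -1.02 for Igkc (adjusted p = 0.174) and -1.06 for Jchain (adjusted p = 0.168). That covariate rests on genes the listing favours for being high in sham, so it can take up part of a difference from sham. Meningeal genes, 10 of 10 listed, summed to 1178 to 3596 CPM in crush AAV-CNTF and 1754 to 2663 CPM in crush AAV-null. In sham they summed to 1368 to 4479 CPM. Ptgds alone averaged 556 CPM in crush AAV-CNTF, 863 CPM in crush AAV-null and 2274 CPM in sham. In crush AAV-null over sham 7 of 10 were positive (median log2 fold change 0.52). There 1 was called higher and 1 lower, against 14.7% and 12.9% of all genes. Within groups the mean level of the meningeal genes had an r of -0.658 with Igkc and -0.456 with Jchain. For oligodendrocyte genes r was 0.591 with Igkc and 0.61 with Jchain, and for astrocyte genes it was 0.523 and 0.53. The part of the meningeal, oligodendrocyte and astrocyte genes in the result was not tested. Of 13 lacrimal and Harderian gland genes only Epcam was listed, at 2.70 CPM on average in crush AAV-CNTF, 1.88 CPM in crush AAV-null and 0.0107 CPM in sham.

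The ratio of Jchain to Igkc within a library, which does not depend on library scaling, ran from -3.43 to -1.91 over the 15 libraries as a difference of log2 CPM. It averaged -2.93 ± 0.413 in crush AAV-CNTF, -2.70 ± 0.492 in crush AAV-null and -2.80 ± 0.233 in sham (SD, n = 5 each). The 3 differences between groups ran from -0.24 to 0.10, and none was larger than the spread (two-sided exact permutation test, adjusted p = 0.746 for each over 6 tests; the smallest p possible is 0.00794). The ratio of Cd4 to Cd3e averaged -0.18 ± 0.773 in crush AAV-CNTF, 0.83 ± 1.17 in crush AAV-null and 0.55 ± 0.590 in sham, and its differences did not pass either (exact permutation test, adjusted p = 0.524 for crush AAV-CNTF over each AAV-null group and 0.746 for crush AAV-null over sham).

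Of 13 other listed B and plasma cell genes, 2 fell and 2 rose in crush AAV-null against sham (12.9% of all genes fell and 14.7% rose), and the median log2 fold change was -0.30 against 0.0048 over all genes. Of the 13, 11 had reached the listing level in sham and 9 in each crush group. The listing itself thus favours genes that are high in sham, and medians of this list against sham support nothing by themselves. The 2 genes that fell in crush AAV-null were heavy chain constant regions. Igha, of IgA, stood at 27.0 ± 17.1 CPM in crush AAV-null and 108 ± 64.4 CPM in sham (SD, n = 5 each; log2 fold change -2.0, edgeR's quasi-likelihood test, Benjamini-Hochberg adjusted p = 0.032). Ighg2c, of an IgG subclass, stood at 52.1 ± 44.5 CPM in crush AAV-null and 178 ± 150 CPM in sham (log2 fold change -1.78, adjusted p = 0.0325). Each of these calls was lost in 6 of 15 fits without 1 library. Ighm, of IgM, stood at 186 ± 92.7 CPM in crush AAV-null and 227 ± 64.1 CPM in sham (SD, n = 5 each) and did not pass (log2 fold change -0.29, adjusted p = 0.516).

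Those that rose in crush AAV-null were Sdc1, a surface proteoglycan of plasma cells and of epithelia, and Txndc5, a protein-folding enzyme of secretory cells. Sdc1 stood at 21.2 ± 5.46 CPM in crush AAV-CNTF, 22.3 ± 4.06 CPM in crush AAV-null and 6.56 ± 1.98 CPM in sham (SD, n = 5 each). It rose by 1.69 on the log2 scale in crush AAV-CNTF (edgeR's quasi-likelihood test, Benjamini-Hochberg adjusted p = 1.18e-05) and by 1.76 in crush AAV-null (adjusted p = 9.03e-06), both against sham. Txndc5 rose by 0.68 in crush AAV-CNTF (adjusted p = 0.00168) and by 0.56 in crush AAV-null (adjusted p = 0.00797), both against sham. Xbp1, a transcription factor of the secretory response in plasma and many other cells, rose by 0.44 in crush AAV-CNTF over sham (adjusted p = 0.00495). So in crush AAV-CNTF over sham 3 of the 13 rose and 0 fell, where 17% of all genes rose and 14.3% fell, with a median of -0.62, and between the crush groups 0 of 13 were called, with a median of 0.34. These 3 genes are active in many cell types, and they moved against Igkc and Jchain. Which cells their rise came from was not tested. Of 5 listed genes for plasma cell survival, Cxcr4, a chemokine receptor that holds plasma cells in their niches, rose by 1.41 in crush AAV-CNTF over sham (adjusted p = 7.98e-06) and by 1.40 in crush AAV-null over sham (adjusted p = 1.05e-05). The other 4 were not called. In crush AAV-null over sham their log2 fold changes were -0.73 (Cxcl12, the ligand of Cxcr4), -1.02 (Tnfsf10), 0.13 (Tnfsf13) and 0.45 (Tnfsf13b). Of all genes, 17% rose in crush AAV-CNTF over sham and 14.7% rose in crush AAV-null over sham. Of 10 genes of leukocytes in general, 9 rose in each crush group against sham. Their median log2 fold change was 1.67 in crush AAV-CNTF and 1.61 in crush AAV-null. Which cells the rise of Cxcr4 came from was not tested.

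The 4 listed heavy chain constant genes shared out differently between libraries. Of their summed counts Ighm held 27.4% to 75.1% in crush AAV-CNTF (median 49.4%), 37.6% to 77.8% in crush AAV-null (median 72%) and 19.1% to 57.6% in sham (median 35.8%). Igha held 8.19% to 31% in crush AAV-CNTF, 0.89% to 17.3% in crush AAV-null and 6.19% to 32% in sham. The ranges of the groups overlap for each gene, and this split was chosen after the values were seen and was not tested. Immunoglobulin genes are a family of similar sequences, so the division of reads among them is uncertain.

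**Figure D3:**
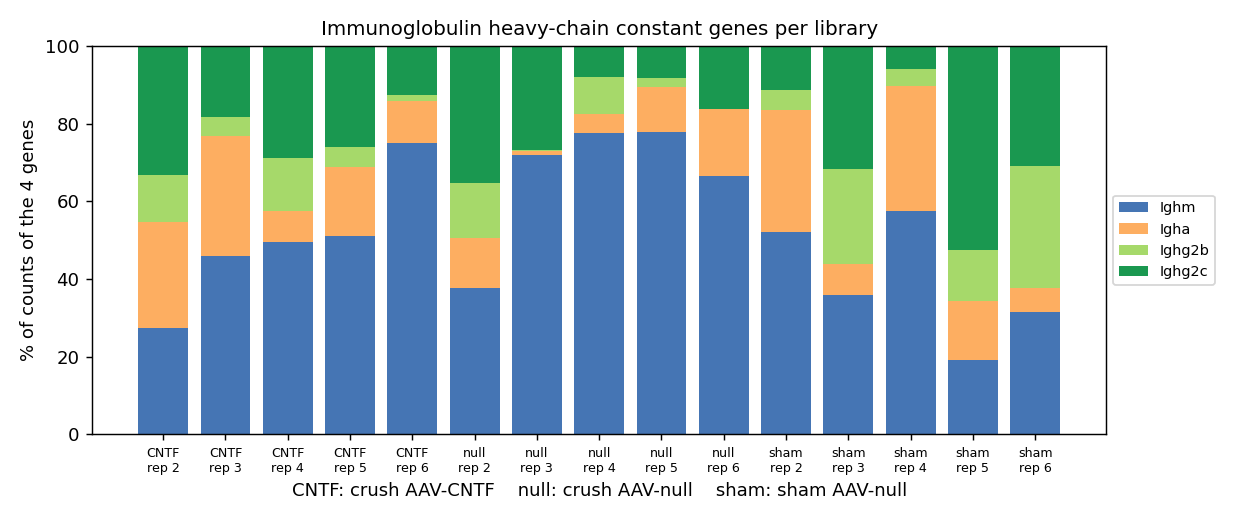
Share of each of 4 heavy chain constant genes (Ighm, Igha, Ighg2b, Ighg2c) in their summed counts (vertical axis, percent, from 0 to 100), 1 bar per library. Ighm has its highest median share in crush AAV-null (72%), and the shares vary widely among the 5 libraries of each group.

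Within groups, the plasma cell genes moved with each other. Over the 15 libraries, with log2 CPM taken as deviations from the group means, Pearson's r was 0.864 between Igkc and Jchain, 0.668 between Cd4 and Gimap4, 0.631 between Cd3e and Cd4, and 0.562 between Cd3e and Gimap4. Between the T cell and plasma cell genes it was 0.523 for Cd3e and Igkc, 0.391 for Cd3e and Jchain, 0.0378 for Gimap4 and Igkc, and -0.144 for Gimap4 and Jchain. The values of a library share its depth and its dissection, so these r values are descriptions only. AAV-CNTF replicates 2 and 3 were the highest of their group for Igkc and Jchain, while replicates 2 and 4 were the highest for Cd3e and Cd4.

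**Figure D4:**
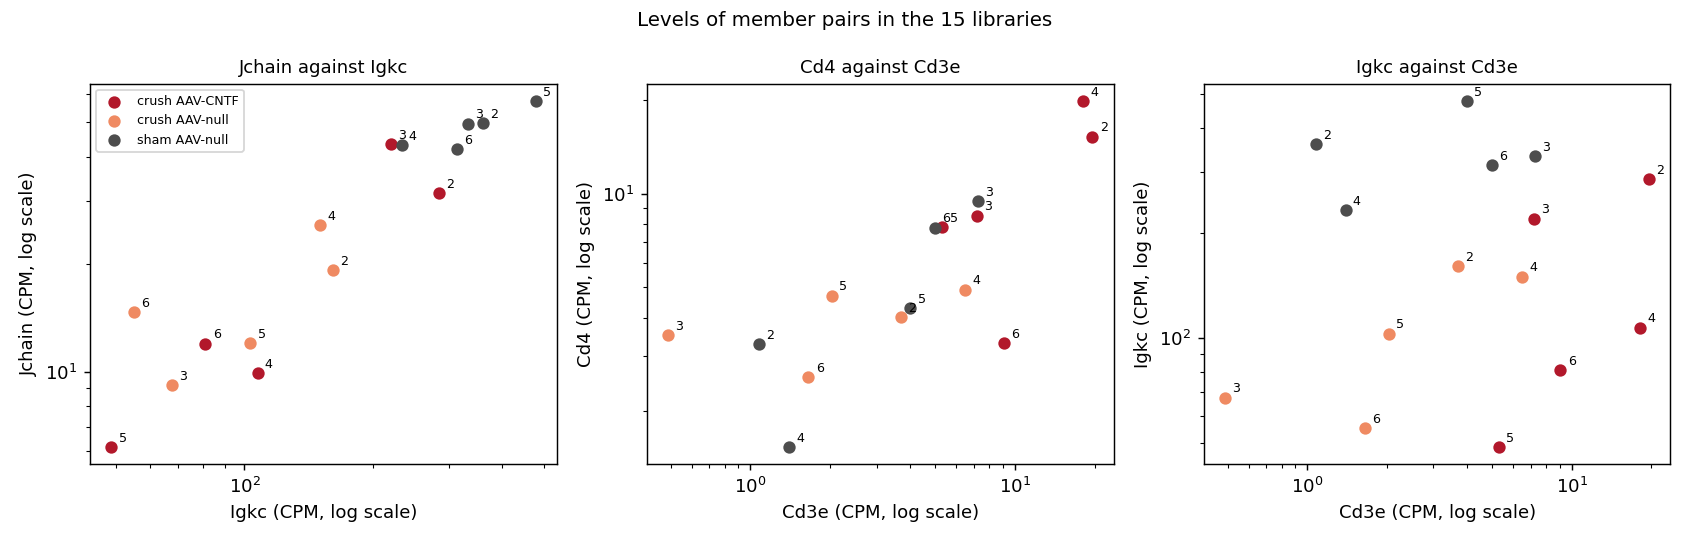
Levels of Jchain against Igkc, Cd4 against Cd3e and Igkc against Cd3e in the 15 libraries (both axes CPM on a log scale), with replicate numbers beside the points. Jchain and Igkc lie along 1 band through all groups (r = 0.864 within groups), while in the plot of Igkc against Cd3e each sham library lies above the crush AAV-CNTF library nearest to it in Cd3e.

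Among 13955 genes of at least 1 CPM on average, those whose deviations were most like a gene's over the 15 libraries were as follows. For Igkc they were Gm12693 (r = 0.866), Jchain (0.864) and Megf9 (0.861), and for Jchain they were Chn1 (0.867), Igkc (0.864) and Gramd3 (0.827). For Cd3e they were Map1b (0.923), Ankrd44 (0.889) and Ypel2 (0.885). For Cd4 they were Zfp382 (0.892), AA467197 (0.880) and Atp2a3 (0.846), and for Gimap4 mt-Nd4 (0.880), 6720427I07Rik (0.861) and Luc7l3 (0.858). Only the plasma cell genes had another of the 5 among their 3 most alike.

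Per length, Igkc was by far the most abundant of the 5 in every group, at 487 FPKM on average in crush AAV-CNTF, 346 FPKM in crush AAV-null and 981 FPKM in sham. Jchain came next, at 18.0 FPKM in crush AAV-CNTF, 13.9 FPKM in crush AAV-null and 36.7 FPKM in sham. Gimap4 had 12.2 FPKM in crush AAV-CNTF, 3.56 FPKM in crush AAV-null and 4.73 FPKM in sham, and Cd3e had 9.63, 3.27 and 3.88 FPKM in the same order of groups. Cd4 was lowest, at 4.01 FPKM in crush AAV-CNTF, 1.52 FPKM in crush AAV-null and 2.00 FPKM in sham. In every group the libraries of Gimap4 overlapped with those of Cd3e, and those of Cd3e with those of Cd4. The libraries of Jchain overlapped with those of Gimap4 in crush AAV-CNTF, and lay above them in crush AAV-null and in sham. The deposited count divided by FPKM gives the length the authors' program assigned to a gene in a library. It ran from 1178 to 1254 bases for Jchain and from 291 to 343 for Igkc, but from 307 to 1737 for Cd3e, 1158 to 2937 for Cd4 and 616 to 1600 for Gimap4. The Cd3e length was 351 bases in crush AAV-null replicate 5, 307 in sham replicate 4 and 646 in sham replicate 5, against 1219 or more in the other 12 libraries, so FPKM and counts rank these libraries differently. In limma's test on log2(FPKM + 0.1) Cd3e was 1.41 higher in crush AAV-CNTF over sham (adjusted p = 0.164) and Gimap4 0.97 higher (adjusted p = 0.12), and neither passed.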

How the data were processed

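RNA from 15 optic nerve libraries was sequenced, 5 in each of 3 groups taken from the labels. Nothing in the labels says more than that they are biological replicates, so p-values measure the spread between these libraries. Per the submitters' processing notes, Trimmomatic 0.32, STAR 2.5.3a, RSEM 1.2.31, R 3.2.3 and DESeq2 were used with mm10. No source used here names the annotation or says whether strand was counted. The authors deposited 1 table of 14237 genes with an expected count, as RSEM gives, for each gene and library. The same deposited table holds FPKM values, scaled by the authors by length and depth. It also holds the authors' log2 fold change and the authors' adjusted p-value for each pair of groups. Each listed gene reached 1 FPKM in 4 or more libraries of a group, and therefore low genes are absent and library totals (19856688 to 29558293) cover listed genes only.

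Expected counts (13.7% to 18.3% of them not whole) were rounded and fitted in R 4.3.3 with edgeR 4.0.16 (TMM, filterByExpr, quasi-likelihood test, 1 model of all 15 libraries with group means and 12 residual degrees of freedom, prior count 2 for log2 CPM). Of the genes listed, 14194 were tested, and p-values were adjusted by Benjamini-Hochberg over all of them per comparison, with 0.05 as the threshold. The biological coefficient of variation was 0.37. The fit was tested on simulated counts. The genes, lists, tests and alternatives were chosen with earlier results of these data known. Named were the 5 genes, other genes of the T cell, GIMAP and B and plasma cell lists past the threshold (up to 6 a list), up to 2 such genes of each other list, and the 3 most alike genes. Trac, Trbc2, Cd2, Cd3g, Ighm and Epcam, and the shares of immunoglobulin genes, were picked with their values in view. So were the plasma cell survival genes other than Cxcr4.

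The alternatives tried were upper quartile and RLE normalization, the low-count filter dropped or set at a mean of 1 CPM, only the 10 libraries compared, a replicate block, a skeletal muscle covariate, limma-voom (limma 3.58.1) with quality weights, DESeq2 1.42.0, and each library left out. Added after the data were seen were limma on log2(FPKM + 0.1) and fits without AAV-CNTF replicates 2 and 4, 2 and 3, or 4 together with crush AAV-null replicate 6. No 2 libraries of a group agreed within sampling noise (chi-square per degree of freedom 40.5 to 153 over 30 pairs). Positions came from GENCODE M21, which matched 14215 identifiers, and promoters from RefSeq.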

Additional observations from a re-analysis of the deposited data

Results flagged for a closer look

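Gimap4 in crush AAV-CNTF replicate 4, at 31.28 CPM, lay far above the other 4 libraries of its group. The gap to the next library was 0.722 of the group's whole range, above the critical value of 0.71 for 5 samples. It was the only such library among 21 sets of values tested, and chance alone gives about 1 in 20. That library also had the highest level of Cd4 and of Cxcl9. Without it Gimap4 was 0.98 higher in crush AAV-CNTF over sham on the log2 scale and 1.51 higher in crush AAV-CNTF over crush AAV-null.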

How the results depend on the processing

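The rise of Cd3e in crush AAV-CNTF over sham was not called with the replicate block (1.36, adjusted p = 0.149 by edgeR's quasi-likelihood test), with limma on FPKM (1.41), without AAV-CNTF replicate 4 and crush AAV-null replicate 6 (1.46), without AAV-CNTF replicates 2 and 4 (0.94) or 2 and 3 (1.53), and ran from 1.40 to 2.04 over fits without 1 library. For Cd4 that range was 0.72 to 1.37, and it was 0.31 without AAV-CNTF replicates 2 and 4. The rise of Gimap4 over sham was not called with limma-voom (1.18), limma on FPKM (0.97) or without AAV-CNTF replicate 4 and crush AAV-null replicate 6 (0.98) or AAV-CNTF replicates 2 and 4 (0.80), with a range of 0.98 to 1.74 (1.81, still called, without AAV-CNTF replicates 2 and 3). Over crush AAV-null Gimap4 was called with the muscle covariate (2.11) and DESeq2 (2.06), with a range of 1.51 to 2.27 (1.32 without AAV-CNTF replicates 2 and 4, 2.33 without 2 and 3). The fall against sham in crush AAV-CNTF was not called with the muscle covariate for Igkc (-1.02) and Jchain (-1.06), nor for Jchain without AAV-CNTF replicate 4 and crush AAV-null replicate 6 (-1.05), with a range for Jchain of -1.70 to -1.0 (-2.37 without AAV-CNTF replicates 2 and 3). Between the crush groups, without AAV-CNTF replicates 2 and 3, the sign turned for Igkc (-0.44) and Jchain (-0.79), and without 1 library Igkc ran from 0.091 to 0.69 and Jchain from -0.12 to 0.58.

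Of all genes, 6 were called higher and 2 lower between the crush groups. The higher count was 1 with only those 10 libraries, 14 with the block, 17 with the muscle covariate, 3 with limma-voom, 3 with limma on FPKM, 59 with DESeq2, and 2, 0 and 18 without AAV-CNTF replicate 4 and crush AAV-null replicate 6, AAV-CNTF 2 and 4, and AAV-CNTF 2 and 3. The lower count was 0 with only those 10 libraries, 10 with the muscle covariate, 0 with limma on FPKM, 24 with DESeq2, and 0, 0 and 5 in the same omissions. Without 1 library the counts ran from 1 to 38 and from 0 to 3. Limma on FPKM called 966 genes lower in crush AAV-CNTF over sham, against 2031, and 826 in crush AAV-null over sham, against 1825. Of the ratios, Cd4 to Cd3e in crush AAV-null over sham ran from -0.18 to 0.58 and Jchain to Igkc from -0.094 to 0.20 without 1 library. The cause of these changes was not tested.

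In all, 593 of 660 such values for these genes, gene counts and ratios were scored as unchanged. For genes and ratios this means the same direction and the same side of the threshold. Gene counts have neither and were judged by their size. Many of the unchanged values are results that were not called and stayed so. The replicate numbers did not pair the libraries (same-number correlations -0.0525 to 0.113 over 15 pairs, 3 of them best with their own number), and the block changed no call of the 5 genes other than that of Cd3e. Cd3e had as few as 11 counts in a library and Lck 0, so single low libraries of such genes are imprecise.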

Other observations

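Immunoglobulin variable genes, of which each plasma cell clone uses 1 for each chain, differed between libraries. The table lists 16 of them: 7 heavy chain, 8 kappa and 1 lambda genes. Crush AAV-CNTF libraries held counts for 6 to 15 (median 10), crush AAV-null libraries for 6 to 11 (median 9) and sham libraries for 11 to 14 (median 13). Only Igkv6-32 had counts in all 15 libraries, and it was the leading kappa gene in all but 3 of them. In crush AAV-CNTF replicate 6 it held 100% of the 700 counts of listed kappa variable genes. Igkv1-110 had 1706 counts in sham replicate 4, or 64.4% of that library's listed kappa variable counts, and at most 14 in the other sham libraries. Iglv1 had 866 counts in crush AAV-CNTF replicate 3 and 265 in crush AAV-null replicate 4. These genes were looked at after other values were seen, a low gene is absent from the table, and similar variable genes share reads, so the values describe these libraries and were not tested.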
